A study of Homo sapiens with 9 samples.

Results

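The skeletal myosin heavy chain genes of human chromosome 17 were examined in MDA-MB-231, a human triple-negative breast cancer line derived from an adenocarcinoma. The cluster was taken by gene symbol as MYH13, MYH8, MYH4, MYH1, MYH2 and MYH3 with the antisense gene MYHAS, and all 7 were present among the 26364 genes of each count table. The genes were chosen because of their counts in these libraries, so their differences between groups are only described here. Test results printed for the members are no evidence for these differences. Each of 3 groups held 3 libraries, and every culture came from cells that stably carried a pLVX lentivirus. The first group received MEL-18 T334A, in which a threonine of MEL-18 is replaced by alanine, the second received MEL-18 wild type (MEL-18 WT), and the third received the empty vector. Cells of all groups grew in DMEM with 10% fetal bovine serum, and RNA was taken after 48 h of culture. MEL-18 is the product of PCGF2, a RING finger protein of Polycomb repressive complex 1, and all groups kept their own PCGF2 gene. The labels do not say whether the 3 libraries of a group came from separate infections or from clones, so the effect of a construct and a difference between the infected lines cannot be told apart, and p-values measure the spread between these libraries.

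Myosin heavy chain is the motor of the thick filament. It binds actin and hydrolyses ATP, and the isoform that a muscle fibre makes sets how fast the fibre contracts. In mammals the embryonic, perinatal and fast skeletal isoforms lie in 1 tandem cluster and are used by different fibres and at different ages. MYH3 encodes the embryonic chain and MYH8 the perinatal chain. MYH2, MYH1 and MYH4 encode the adult fast chains IIa, IIx and IIb, and MYH13 encodes a fast chain known from the extraocular muscles. Epithelial cancer cells are not known for these chains and move with the nonmuscle myosins encoded by MYH9 and MYH10. MYHAS is an RNA gene of the cluster that is transcribed from the opposite strand.

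The gene order along the chromosome was MYH13, MYHAS, MYH8, MYH4, MYH1, MYH2 and MYH3 in the GENCODE annotation, and the rows of the count tables had the same order. The 6 heavy chain genes lay on the minus strand. MYHAS lay on the plus strand, its span overlapped those of MYH8, MYH4, MYH1 and MYH2, and its exons shared 30 bases with exons of MYH8 and 0 with those of the other members. The transcripts of MYH8, MYH4, MYH1 and MYH2 were 85.2% to 90.2% identical to each other. MYH13 was 76.6% to 78.0% identical to those 4, and MYH3 was 78.2% to 78.8% identical to them. Of the 50-base words in a transcript, 20.8% of those of MYH1, 19.8% of MYH2, 13.6% of MYH4, 8.18% of MYH8, 9.90% of MYH13 and 3.92% of MYH3 also occurred in a transcript of another gene. For MYHAS the share was 38.4%, and most of it was shared with AC005323.1. How the authors' counting treated reads that fit several places, and which strand setting it used, is not given in the sources used here, so the split of reads among MYH1, MYH2 and MYH4 and the counts of MYHAS are uncertain.

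The promoters of the members with low counts in MEL-18 T334A cells are shown because these genes held few counts in the same 3 libraries. RefSeq sequences of 250 bases before to 50 bases after the start (GRCh38.p14) were at hand for 5 of the 7 members, MYH13, MYH8, MYH4, MYH1 and MYH2. Capitals mark the letters TATAA on the printed strand and, in MYH8, MYH4, MYH1 and MYH2, the longest run common to all 4.
MYH13, chr17:10372957-10373256, minus strand: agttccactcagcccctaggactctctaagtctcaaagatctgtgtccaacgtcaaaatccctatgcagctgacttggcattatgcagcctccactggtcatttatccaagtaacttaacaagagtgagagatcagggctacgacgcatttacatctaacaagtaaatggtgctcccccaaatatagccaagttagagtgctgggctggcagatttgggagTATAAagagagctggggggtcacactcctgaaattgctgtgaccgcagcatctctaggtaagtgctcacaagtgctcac
MYH8, chr17:10421901-10422200, minus strand: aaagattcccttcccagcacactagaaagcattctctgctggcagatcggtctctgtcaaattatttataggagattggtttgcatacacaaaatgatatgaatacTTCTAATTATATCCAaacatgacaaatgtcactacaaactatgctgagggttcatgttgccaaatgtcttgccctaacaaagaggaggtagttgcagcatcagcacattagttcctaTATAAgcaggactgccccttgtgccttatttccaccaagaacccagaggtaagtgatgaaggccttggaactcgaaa
MYH4, chr17:10469510-10469809, minus strand: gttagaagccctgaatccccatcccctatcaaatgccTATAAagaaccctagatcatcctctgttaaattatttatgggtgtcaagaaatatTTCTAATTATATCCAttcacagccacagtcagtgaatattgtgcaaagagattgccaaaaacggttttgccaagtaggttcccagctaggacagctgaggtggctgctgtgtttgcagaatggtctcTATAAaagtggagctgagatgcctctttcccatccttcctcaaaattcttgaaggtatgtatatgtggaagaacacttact
MYH1, chr17:10518493-10518792, minus strand: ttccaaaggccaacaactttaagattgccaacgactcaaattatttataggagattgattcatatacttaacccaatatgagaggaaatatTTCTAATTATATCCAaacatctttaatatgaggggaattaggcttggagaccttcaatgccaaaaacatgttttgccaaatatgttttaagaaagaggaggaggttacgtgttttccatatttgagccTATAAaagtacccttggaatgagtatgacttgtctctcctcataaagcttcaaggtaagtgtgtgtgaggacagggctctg
MYH2, chr17:10549609-10549908, minus strand: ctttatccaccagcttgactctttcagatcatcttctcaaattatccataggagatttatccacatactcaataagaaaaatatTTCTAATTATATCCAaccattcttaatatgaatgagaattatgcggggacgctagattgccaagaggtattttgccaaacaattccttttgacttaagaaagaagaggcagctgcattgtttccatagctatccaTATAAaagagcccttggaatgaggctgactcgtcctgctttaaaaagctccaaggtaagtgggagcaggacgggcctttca
The common run was TTCTAATTATATCCA, 15 bases long. It began 144 bases before the start in MYH8, 158 in MYH4, 159 in MYH1 and 166 in MYH2, and it was not found in the MYH13 window. On either strand it occurred in 4 of 35116 RefSeq promoter windows, or 0.0114%, and those were the windows of these same 4 genes. The nearest TATAA began 29 bases before the start in MYH13, 27 in MYH8 and 31 in MYH4, MYH1 and MYH2. TATAA occurred on either strand in 20.4% of all windows and the longer TATAAA, which is part of those matches, in 11.5%. At that nearest position MYH8 had TATAA without the further A. Of motifs searched on both strands for muscle factors, the E-box CANNTG had 2 matches each in MYH13, MYH8 and MYH4, 1 in MYH2 and 0 in MYH1, and 68.7% of all windows held one. The MEF2 box had 1 match each in MYH8 and MYH1 and 2.99% of all windows held one, and the CArG box had 0 matches in the 5 windows, with 1.29% of all windows holding one. The run and the letters TATAA were chosen after these windows had been read, so the matches describe the windows and identify no binding site.

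The libraries held 31643722 to 37005302 counts. PCGF2, the overexpressed gene, stood at 1420 ± 30.9 CPM (counts scaled to a common library size, mean ± SD, n = 3) in MEL-18 T334A libraries, at 1286 ± 6.55 in MEL-18 WT libraries and at 22.7 ± 0.88 in vector libraries. These levels accord with the labels as to which libraries carried added MEL-18, but gene counts do not show which form was added. MEL-18 T334A libraries exceeded MEL-18 WT libraries in PCGF2 by 0.14 ± 0.03 on the log2 scale (adjusted p = 1.48e-04, edgeR quasi-likelihood test). Between 18956 and 19636 genes had a count in 8 of the libraries, against 20323 in MEL-18 T334A replicate 1, which also held 4846 genes with 1 to 5 counts where the other libraries held 3757 to 4339. The summed counts of the members are therefore given with and without that library, and leaving it out was among the alternatives for the tested genes.

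MYH13 had 15, 7 and 14 counts in MEL-18 T334A replicates 1 to 3, 112, 121 and 95 counts in MEL-18 WT replicates and 101, 98 and 88 counts in vector replicates. All 3 MEL-18 T334A libraries lay below the 6 others, and the MEL-18 WT and vector libraries overlapped. The summed counts were 36 with MEL-18 T334A, 328 with MEL-18 WT and 287 with the vector. Scaled for library size, the MEL-18 T334A sum was 8.40-fold lower than the vector sum (exact 95% interval 5.93 to 12.2) and 8.87-fold lower than the MEL-18 WT sum (6.28 to 12.9). Such intervals cover counting error only. MEL-18 WT stood at 1.06 times the vector (0.899 to 1.24). In bulk RNA, fewer cells with a transcript and less transcript per cell cannot be told apart.

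MYHAS, the antisense gene, had 2, 6 and 7 counts in MEL-18 T334A replicates, 49, 69 and 38 counts in MEL-18 WT replicates and 55, 50 and 52 counts in vector replicates. The MEL-18 T334A libraries again lay below all others. The sums were 15 with MEL-18 T334A, 156 with MEL-18 WT and 157 with the vector, so that the scaled MEL-18 T334A sum was 11.0-fold lower than the vector sum (6.49 to 20.2) and 10.1-fold lower than the MEL-18 WT sum (5.95 to 18.5).

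MYH8, the perinatal chain, had 4 counts in each of the 3 MEL-18 T334A replicates, 23, 33 and 28 counts in MEL-18 WT replicates and 29, 25 and 34 counts in vector replicates. It varied least among the MEL-18 T334A replicates of the 6 low members. The sums of 12 with MEL-18 T334A, 84 with MEL-18 WT and 88 with the vector made the scaled MEL-18 T334A sum 7.73-fold lower than the vector sum (4.21 to 15.5) and 6.82-fold lower than the MEL-18 WT sum (3.70 to 13.7).

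The adult fast chains were sparser. MYH4, the IIb chain, had 8, 3 and 4 counts in MEL-18 T334A replicates, 19, 13 and 15 counts in MEL-18 WT replicates and 16, 19 and 16 counts in vector replicates. MYH1, the IIx chain, had 7, 2 and 0 counts in MEL-18 T334A replicates, 17, 23 and 16 counts in MEL-18 WT replicates and 20, 21 and 15 counts in vector replicates. MYH2, the IIa chain, had 6, 0 and 1 counts in MEL-18 T334A replicates, 13, 18 and 23 counts in MEL-18 WT replicates and 8, 16 and 9 counts in vector replicates. For each of these 3 genes, every MEL-18 T334A library lay below every MEL-18 WT and every vector library, and replicate 1 was the highest MEL-18 T334A library. A count of 0 allows up to 3 counts in that library. The MEL-18 T334A sum against the vector sum was 3.58-fold lower for MYH4 (1.98 to 6.86), 6.56-fold lower for MYH1 (3.22 to 15.1) and 4.97-fold lower for MYH2 (2.16 to 13.3). Against the MEL-18 WT sum it was 3.05-fold lower for MYH4 (1.68 to 5.87), 6.06-fold lower for MYH1 (2.97 to 13.9) and 7.51-fold lower for MYH2 (3.41 to 19.6). The intervals of the 3 genes overlapped in both comparisons. MYH2 was the only one of the 6 low members with more counts in MEL-18 WT than in vector libraries by over 1.5-fold in the sums, 54 against 33, and the interval of that ratio ran from 0.963 to 2.41.

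Without MEL-18 T334A replicate 1, the remaining pair of MEL-18 T334A libraries held 7 counts of MYH4, 2 of MYH1 and 1 of MYH2. The scaled ratio of that pair to the vector libraries was then 0.190 for MYH4 (0.0726 to 0.419), 0.0493 for MYH1 (0.00583 to 0.187) and 0.0418 for MYH2 (0.00103 to 0.250), against 0.279, 0.153 and 0.201 with all 3. These 3 ratios were lower without the library that detected the most genes. For MYH13, MYHAS and MYH8 the ratios to the vector without it were 0.101, 0.114 and 0.126, against 0.119, 0.0907 and 0.129 with it. Against MEL-18 WT libraries the ratios without it were 0.0957 for MYH13, 0.125 for MYHAS, 0.142 for MYH8, 0.223 for MYH4, 0.0534 for MYH1 and 0.0277 for MYH2.

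MYH3, the embryonic chain at the other end of the cluster, was the member with the most counts and had another pattern. It had 239, 220 and 234 counts in MEL-18 T334A replicates, 312, 331 and 300 counts in MEL-18 WT replicates and 222, 254 and 257 counts in vector replicates. The MEL-18 T334A libraries lay below the MEL-18 WT libraries and overlapped the vector libraries. The MEL-18 T334A sum of 693 was 0.897 times the vector sum of 733 after scaling (0.808 to 0.997) and 0.755 times the MEL-18 WT sum of 943 (0.683 to 0.833), and the MEL-18 WT sum was 1.19 times the vector sum (1.08 to 1.31). Without MEL-18 T334A replicate 1 the first ratio was 0.855 (0.759 to 0.963) and the second was 0.719 (0.642 to 0.806). MYH3 made up 88.1% of the 787 counts of the cluster in MEL-18 T334A libraries, 56.5% of 1668 in MEL-18 WT libraries and 52.2% of 1405 in vector libraries.

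**Figure D1:**
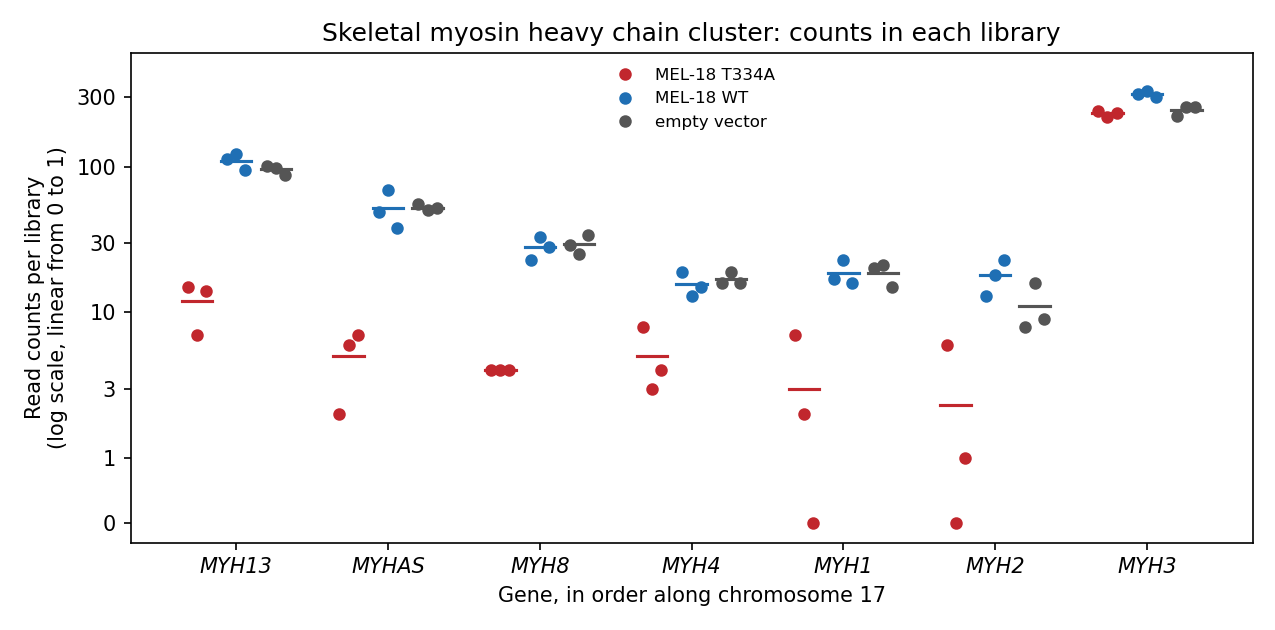
Read counts of the 7 members in each library, on a logarithmic axis that is linear from 0 to 1; points are libraries and short lines are group means (n = 3). For MYH13, MYHAS, MYH8, MYH4, MYH1 and MYH2 the MEL-18 T334A libraries, at 0 to 15 counts, lie below the MEL-18 WT and vector libraries, and for MYH3 all libraries lie between 220 and 331 counts.

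Summed within each library, the 6 members other than MYH3 held 42, 22 and 30 counts in MEL-18 T334A libraries, 233, 277 and 215 counts in MEL-18 WT libraries and 229, 229 and 214 counts in vector libraries. The highest MEL-18 T334A library, replicate 1 with 42, was still below the lowest of the 6 others, at 214. The sums of 94, 725 and 672 counts, for MEL-18 T334A, MEL-18 WT and the vector, gave a MEL-18 T334A level 7.53-fold lower than that of the vector (6.06 to 9.45) and 7.51-fold lower than that of MEL-18 WT (6.05 to 9.41). Without MEL-18 T334A replicate 1 these became 9.36-fold and 9.33-fold. MEL-18 WT stood at 0.997 times the vector (0.896 to 1.11). Both MEL-18 T334A comparisons use the same 3 MEL-18 T334A libraries.

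In the fit over all genes, MYH13 had a log2 fold change of -3.06 ± 0.21 (SE) in MEL-18 T334A against vector libraries and -3.13 ± 0.20 against MEL-18 WT libraries. MYHAS had -3.43 ± 0.31 and -3.31 ± 0.31, and MYH8 had -2.91 ± 0.34 and -2.73 ± 0.35, in the same comparisons. MYH3 had -0.16 ± 0.09 and -0.40 ± 0.08, on the far side of a gap of more than 1 log2 unit from the next member, MYH4, at -1.81 ± 0.38 and -1.58 ± 0.39. The fit also returned calls for the members, which test nothing here, since the members were chosen because of their counts in these libraries. At an adjusted p below 0.05, 6 of the 7 were called lower in MEL-18 T334A against vector libraries, where 22.5% of all 14738 tested genes were. Against MEL-18 WT libraries 7 of 7 were called lower, where 20.0% were. In MEL-18 WT against vector libraries 1 member, MYH3, was called higher, where 14.4% of genes were, at 0.25 ± 0.08. That call was lost with DESeq2 and without vector replicate 1, MEL-18 WT replicate 2 or MEL-18 WT replicate 3. Groups without overlap and with MEL-18 T334A lower were found for 25.2% of tested genes against the vector and 24.0% against MEL-18 WT. These calls and shares are given as background only and are no support, since the members were chosen on the same contrasts. All 7 members passed the filter on low counts, but MYHAS, MYH8, MYH4, MYH1 and MYH2 reached its level of 0.294 CPM in 0 of the 3 MEL-18 T334A libraries and passed through the other groups alone.

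The levels per length put the cluster among the other myosin heavy chains. CPM per kb of transcript are given, with SD and n = 3. MYH9, the nonmuscle IIA chain, stood at 211 ± 4.44 in MEL-18 T334A, 197 ± 2.41 in MEL-18 WT and 213 ± 4.29 in vector libraries. MYH10, the nonmuscle IIB chain, stood at 15.8 ± 0.371 in MEL-18 T334A, 15.8 ± 0.290 in MEL-18 WT and 14.8 ± 0.275 in vector libraries. MYH3 was the highest member at 1.12 ± 0.101 with MEL-18 T334A, 1.48 ± 0.0271 with MEL-18 WT and 1.24 ± 0.118 with the vector. In vector libraries MYHAS followed at 0.707 ± 0.0460 and then MYH13 at 0.483 ± 0.0229, with no overlap between their libraries, while in MEL-18 WT libraries MYHAS, at 0.643 ± 0.164, and MYH13, at 0.510 ± 0.0356, overlapped. MYH8, which came next in MEL-18 WT and vector libraries, stood at 0.0193 ± 0.00107 with MEL-18 T334A, 0.131 ± 0.0220 with MEL-18 WT and 0.150 ± 0.0283 with the vector. In those 2 groups MYH4, MYH1 and MYH2 lay below it, at mean levels of 0.0740 to 0.0875 with MEL-18 WT and 0.0529 to 0.0948 with the vector. The libraries of these 3 genes overlapped with MEL-18 WT. With the vector MYH4 and MYH1 overlapped, while MYH2, at 0.0385 to 0.0751, lay below both. In MEL-18 T334A libraries the means of the 6 members other than MYH3 lay between 0.0113 and 0.0629. The mean of MYH4, at 0.0247, lay above that of MYH8 there, but their libraries overlapped (0.0141 to 0.0413 for MYH4 and 0.0187 to 0.0205 for MYH8). The cluster thus stood at levels far under the nonmuscle chains in every group.

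**Figure D2:**
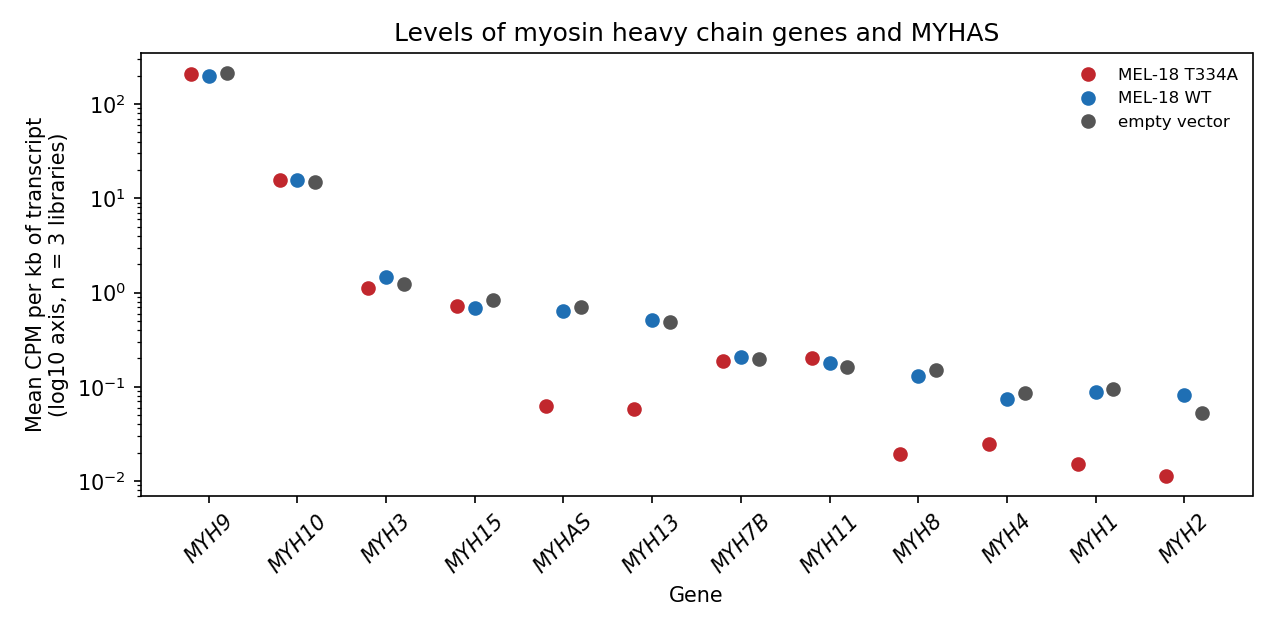
Mean CPM per kb of transcript (log10 axis, n = 3 libraries a group) for the 7 members and for MYH7B, MYH9, MYH10, MYH11 and MYH15; MYH6, MYH7, MYH14 and MYH16, with at most 15 counts in any library, are not drawn. The MEL-18 T334A point is the lowest for all 7 members, with a much smaller gap for MYH3 (1.12 against 1.48 with MEL-18 WT and 1.24 with the vector) than for the other 6, while those of MYH9, near 211, and MYH10, near 15.8, lie beside those of MEL-18 WT and the vector.

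Outside the cluster, 5 further heavy chain genes were tested. MYH10 rose by 0.09 ± 0.03 on the log2 scale in MEL-18 T334A against vector libraries (adjusted p = 0.0137, edgeR quasi-likelihood test), a call lost in 2 of 16 alternatives. It was the 1 of 5 called in that comparison, where 23.4% of all tested genes were called higher and 22.5% lower. MYH9 rose by 0.10 ± 0.03 in MEL-18 T334A against MEL-18 WT libraries (adjusted p = 0.00465, edgeR quasi-likelihood test), the 1 of 5 called there. In MEL-18 WT against vector libraries MYH9 fell by 0.11 ± 0.03 (adjusted p = 0.00238) and MYH10 rose by 0.10 ± 0.03 (adjusted p = 0.0169), a call lost in 3 of 16 alternatives. Thus 1 of the 5 was called higher and 1 lower there, where 14.4% and 14.4% of all tested genes were. The median log2 fold change of the 5 was -0.01 in MEL-18 T334A against vector libraries, where the median over all tested genes was -0.0022. These changes of nonmuscle chains were small beside the differences of the 6 low members.

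The genes on either side of the cluster were taken as a list of 23, of which 11 passed the filter and 12 did not. In MEL-18 T334A against vector libraries 1 of the 11 was called higher and 1 lower, where 23.4% and 22.5% of all tested genes were. Against MEL-18 WT libraries 1 was called higher and 2 lower (21.0% and 20.0% of all). In MEL-18 WT against vector libraries 1 was called higher and 0 lower (14.4% and 14.4% of all). USP43, which encodes a deubiquitinase, had 10.4, 9.39 and 10.7 CPM in MEL-18 T334A replicates, 8.78, 9.01 and 8.85 CPM in MEL-18 WT replicates and 7.93, 7.32 and 9.02 CPM in vector replicates. It rose by 0.33 ± 0.08 on the log2 scale against the vector (adjusted p = 0.00104) and by 0.19 ± 0.08 against MEL-18 WT (adjusted p = 0.0427), and the second call was lost in 6 of 16 alternatives. SCO1, the first annotated neighbour beyond MYH3 and a factor that delivers copper to cytochrome c oxidase, fell by 0.09 ± 0.04 in MEL-18 T334A against vector libraries (adjusted p = 0.0397), a call lost in 14 of 16 alternatives. Against MEL-18 WT libraries SCO1 fell by 0.10 ± 0.04 (adjusted p = 0.0211), a call lost in 4. COX10, an enzyme of haem A synthesis, fell by 0.20 ± 0.05 in MEL-18 T334A against MEL-18 WT libraries (adjusted p = 0.00235). It rose by 0.15 ± 0.05 in MEL-18 WT against vector libraries (adjusted p = 0.0318), a call lost in 4 of 16 alternatives. The other flanking genes tested, NTN1, STX8, GLP2R, ADPRM, TMEM220, ZNF18, MAP2K4 and ELAC2, were called in 0 of the 3 comparisons, with log2 fold changes from -0.29 for TMEM220 in MEL-18 T334A against MEL-18 WT to 0.43 for the same gene in MEL-18 WT against the vector. At an unadjusted p below 0.05 edgeR took 1 of these 8, ELAC2, in MEL-18 T334A against MEL-18 WT, and DESeq2 called 0 in each comparison. The median log2 fold change of the 11 was -0.02 against the vector and -0.07 against MEL-18 WT in MEL-18 T334A libraries.

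The 12 flanking genes under the filter were not tested, and 2 of them, GAS7 and CFAP52, were singled out after their values were seen. GAS7 is the annotated neighbour beyond MYH13. GAS7 had 1, 5 and 4 counts in MEL-18 T334A replicates, 12, 6 and 8 counts in MEL-18 WT replicates and 9, 9 and 9 counts in vector replicates. The MEL-18 T334A libraries lay below all others, with 5 counts against 6 at the nearest point, and the scaled sum was 0.351 times that of the vector (0.152 to 0.749) and 0.395 times that of MEL-18 WT (0.170 to 0.847). Without MEL-18 T334A replicate 1 these became 0.460 (0.190 to 1.01) and 0.517 (0.213 to 1.14), intervals that both include 1. CFAP52, on the same side of the cluster, went the other way. It had 7, 4 and 8 counts in MEL-18 T334A replicates, 2, 4 and 6 counts in MEL-18 WT replicates and 3, 3 and 1 counts in vector replicates. The scaled MEL-18 T334A sum was 2.58 times that of the vector (1.04 to 7.25) and 1.63 times that of MEL-18 WT (0.749 to 3.67). Without replicate 1 the ratio to the vector was 2.37 (0.859 to 7.10). The other 10 untested genes had at most 12 counts in a library.

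**Figure D3:**
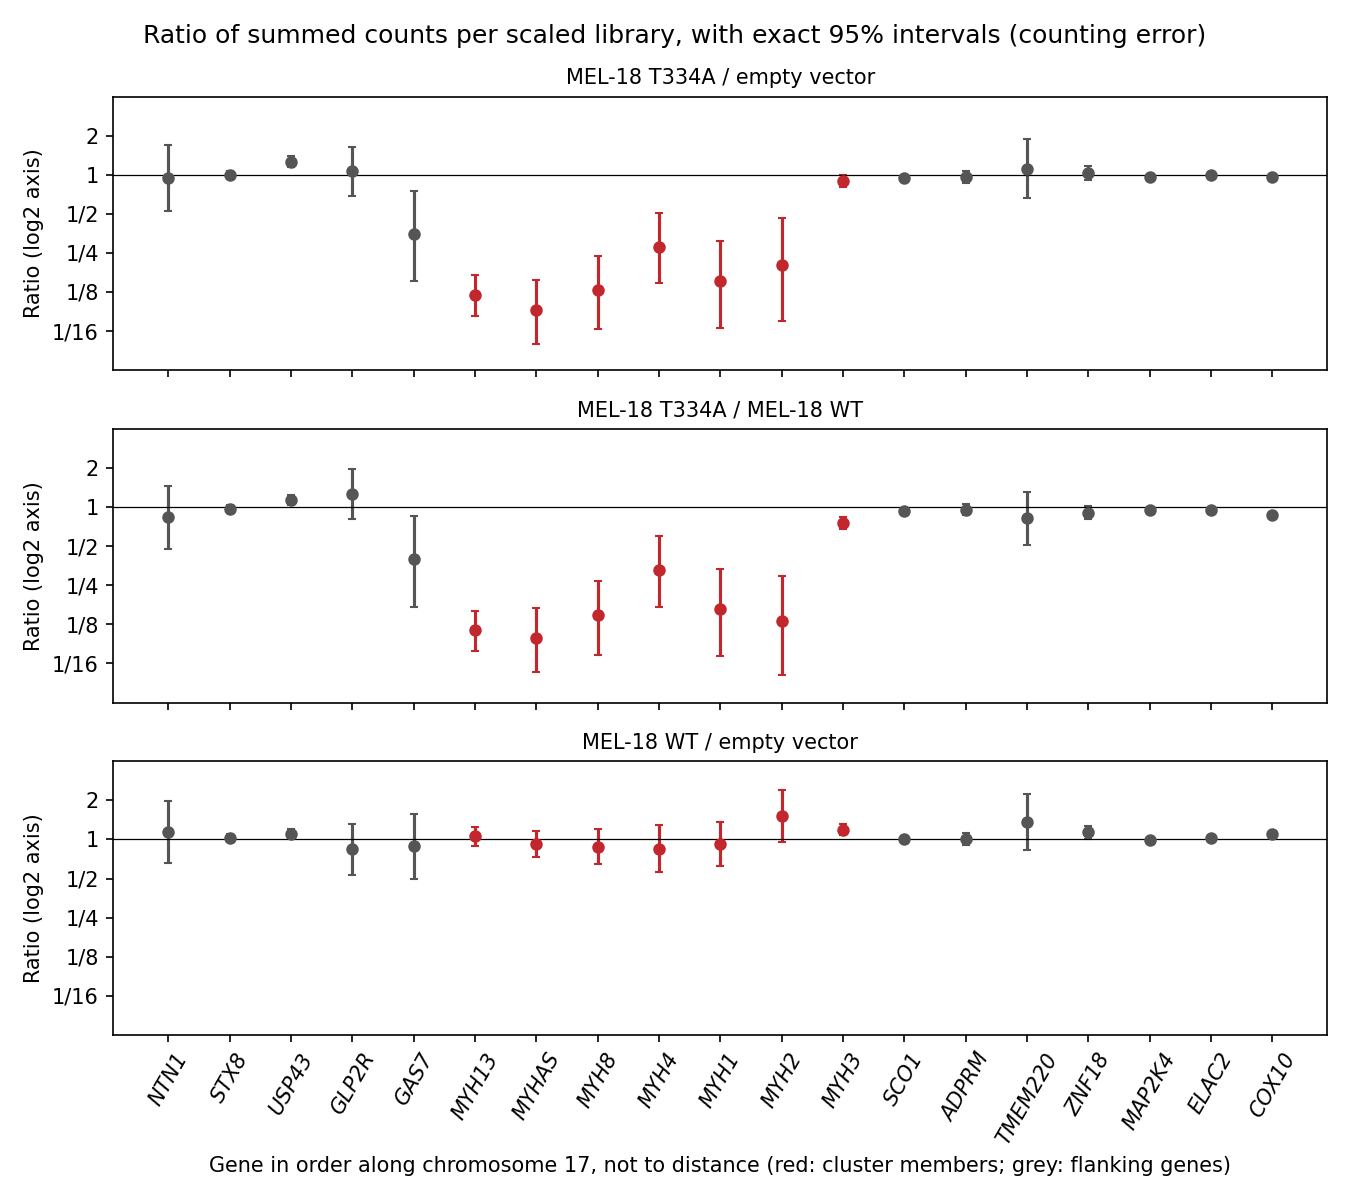
Ratio of summed counts, scaled for library size, with exact 95% intervals for counting error, for the 7 members (red), the 11 tested flanking genes and untested GAS7 (grey), in their order along chromosome 17 and not to distance (log2 axis). In both MEL-18 T334A comparisons MYH13 to MYH2 lie between 0.0907 and 0.328, while MYH3 and the flanking genes other than GAS7 lie between 0.755 and 1.26, and in MEL-18 WT against the vector the members lie between 0.852 and 1.51.

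The cells were checked for muscle and other cell types. Of 8 skeletal muscle markers (CKM, MYOD1, MYOG, MYF5, DES, ACTA1, TNNT3 and MYLPF), the summed counts were 21 to 32 in MEL-18 T334A libraries, 25 to 28 in MEL-18 WT libraries and 17 to 24 in vector libraries. CKM, the muscle creatine kinase, reached at most 2 counts in a library. The myogenic factors MYOD1 and MYOG reached at most 3 each, and MYF5 at most 1. CKM, MYOD1, MYOG and MYF5 were thus near 0 in all groups. ACTA1 reached up to 15 counts in a library, DES up to 11, and TNNT3 and MYLPF up to 6 each. VIM, a mesenchymal filament high in this line, had at least 44814 counts in each library, and ESR1, the oestrogen receptor, at most 4. Among markers of other cell types, 5 endothelial genes summed to 86 to 100 counts in MEL-18 T334A, 82 to 101 in MEL-18 WT and 99 to 118 in vector libraries. The 5 leukocyte genes summed to 1585 to 1903 counts in MEL-18 T334A, 1803 to 2128 in MEL-18 WT and 1692 to 1865 in vector libraries. The 6 fibroblast genes summed to 682 to 913 counts in MEL-18 T334A, 683 to 765 in MEL-18 WT and 509 to 521 in vector libraries. The endothelial sum hid members that moved in opposite directions. In MEL-18 T334A against vector libraries 1 of 4 tested endothelial markers was called higher and 2 lower. Of all tested genes, 23.4% were called higher and 22.5% lower in that comparison. The median log2 fold change of the 4 was -0.80, and the 3 called were named after their values were seen. CDH5, the endothelial cadherin, had 7, 9 and 5 counts in MEL-18 T334A replicates, 20, 23 and 21 counts in MEL-18 WT replicates and 25, 40 and 28 counts in vector replicates. It fell by 2.20 ± 0.30 on the log2 scale in MEL-18 T334A against vector libraries (adjusted p = 1.17e-06) and by 1.55 ± 0.33 against MEL-18 WT libraries (adjusted p = 4.63e-04). PECAM1, an adhesion protein of endothelium and leukocytes, had 11, 13 and 10 counts in MEL-18 T334A replicates, 21, 13 and 16 in MEL-18 WT replicates and 38, 28 and 27 in vector replicates, and fell by 1.52 ± 0.27 against the vector (adjusted p = 4.69e-05). KDR, a receptor of vascular endothelial growth factor, had 60, 52 and 61 counts in MEL-18 T334A replicates, 45, 40 and 33 in MEL-18 WT replicates and 36, 30 and 33 in vector replicates, and rose by 0.73 ± 0.18 against the vector (adjusted p = 0.00143) and by 0.59 ± 0.17 against MEL-18 WT (adjusted p = 0.00690). Of the leukocyte markers 1 of 2 tested was called lower in MEL-18 T334A against vector libraries (22.5% of all tested genes). Of the fibroblast markers 2 of 3 tested were called higher there (23.4% of all). None of these markers was at 0 in all 9 libraries, and their part in the values of the cluster was not tested.

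The other muscle genes were taken as lists by role. Of 45 skeletal sarcomere genes 15 were tested, and in MEL-18 T334A against vector libraries 5 rose and 2 fell, with a median log2 fold change of 0.04 over the 15, where 23.4% of all tested genes rose and 22.5% fell. Against MEL-18 WT libraries 3 rose and 3 fell, with a median of -0.03, where 21.0% of all rose and 20.0% fell. In MEL-18 WT against vector libraries 5 rose and 1 fell, with a median of 0.02, where 14.4% of all rose and 14.4% fell. TMOD1, which caps the pointed end of actin filaments, rose by 0.99 ± 0.18 with MEL-18 T334A (adjusted p = 7.96e-05) and by 1.02 ± 0.18 with MEL-18 WT (adjusted p = 8.93e-05), both against the vector. NEB, the thin filament protein nebulin, fell by 0.58 ± 0.13 in MEL-18 T334A against MEL-18 WT libraries (adjusted p = 8.49e-04). It rose by 0.44 ± 0.13 in MEL-18 WT against vector libraries (adjusted p = 0.0102), a call lost in 2 of 16 alternatives. NEB was not called in MEL-18 T334A against vector libraries. TNNT1, slow troponin T, rose by 0.31 ± 0.04 in MEL-18 T334A against MEL-18 WT libraries (adjusted p = 9.56e-08).

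Among 25 myogenic regulators 11 were tested. In MEL-18 T334A against vector libraries 4 rose and 1 fell (23.4% and 22.5% of all tested genes), against MEL-18 WT libraries 4 rose and 2 fell (21.0% and 20.0% of all), and in MEL-18 WT against vector libraries 3 rose and 1 fell (14.4% and 14.4% of all). MUSK, the receptor kinase of the neuromuscular junction, had 95, 112 and 116 counts in MEL-18 T334A replicates, 9, 13 and 12 counts in MEL-18 WT replicates and 16, 18 and 10 counts in vector replicates. It was higher in each MEL-18 T334A library than in all others, by 2.79 ± 0.19 on the log2 scale against the vector (adjusted p = 3.26e-12) and 3.27 ± 0.20 against MEL-18 WT (adjusted p = 5.87e-13). EYA1, a transcriptional cofactor active in muscle precursors, had 19, 11 and 11 counts in MEL-18 T334A replicates, 73, 58 and 55 counts in MEL-18 WT replicates and 15, 7 and 19 counts in vector replicates. It differed by -2.13 ± 0.25 in MEL-18 T334A against MEL-18 WT libraries (adjusted p = 1.88e-07) and by 2.06 ± 0.26 in MEL-18 WT against vector libraries (adjusted p = 5.29e-07). MEF2C, a transcription factor of muscle genes, rose by 0.29 ± 0.07 in MEL-18 T334A against vector libraries (adjusted p = 0.00148) and by 0.30 ± 0.07 against MEL-18 WT libraries (adjusted p = 0.00111).

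Of 25 genes of excitation-contraction coupling 15 were tested, and 9 rose and 2 fell in MEL-18 T334A against vector libraries, with a median of 0.11, where 23.4% and 22.5% of all tested genes did. Against MEL-18 WT libraries 7 rose and 1 fell, where 21.0% and 20.0% did, and in MEL-18 WT against vector libraries 2 rose and 1 fell, where 14.4% and 14.4% did. RYR2, the ryanodine receptor calcium channel best known from heart muscle, had 558, 639 and 571 counts in MEL-18 T334A replicates, 13, 20 and 16 counts in MEL-18 WT replicates and 9, 10 and 14 counts in vector replicates. It rose by 5.65 ± 0.14 against the vector (adjusted p = 5.80e-22) and by 5.20 ± 0.13 against MEL-18 WT (adjusted p = 7.27e-22). JPH2, which holds the membranes of the calcium release unit together, rose by 0.87 ± 0.23 (adjusted p = 0.00319) and 0.80 ± 0.22 (adjusted p = 0.00565) in the same comparisons. STAC3, a partner of the muscle calcium channel, fell by 0.90 ± 0.20 in MEL-18 T334A against vector libraries (adjusted p = 5.15e-04). ATP2A3, a calcium pump, rose by 1.01 ± 0.13 with MEL-18 T334A (adjusted p = 2.71e-07) and by 0.93 ± 0.13 with MEL-18 WT (adjusted p = 2.46e-06), both against the vector.

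The partners of myosin were mostly measured well. Of 10 tested light chain and kinase genes 4 rose and 1 fell in MEL-18 T334A against vector libraries (23.4% and 22.5% of all tested genes), 4 rose against MEL-18 WT libraries (21.0% of all), and 3 rose and 1 fell in MEL-18 WT against vector libraries (14.4% and 14.4% of all). MYLK, the myosin light chain kinase, rose by 0.96 ± 0.05 (adjusted p = 8.03e-15) in MEL-18 T334A against vector libraries and by 0.63 ± 0.05 against MEL-18 WT libraries (adjusted p = 2.55e-11). MYL12A, a regulatory light chain, rose by 0.33 ± 0.03 (adjusted p = 4.14e-10) and 0.43 ± 0.03 (adjusted p = 4.43e-12) in those comparisons. Among 5 tested genes of the list of myosin folding, HSP90AA1, a chaperone, fell by 0.40 ± 0.04 in MEL-18 T334A against vector libraries (adjusted p = 1.44e-09) and by 0.33 ± 0.04 against MEL-18 WT libraries (adjusted p = 6.45e-08). The muscle myosin chaperone UNC45B held 10 counts over all 9 libraries and the muscle methyltransferase SMYD1 held 1.

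**Figure D4:**
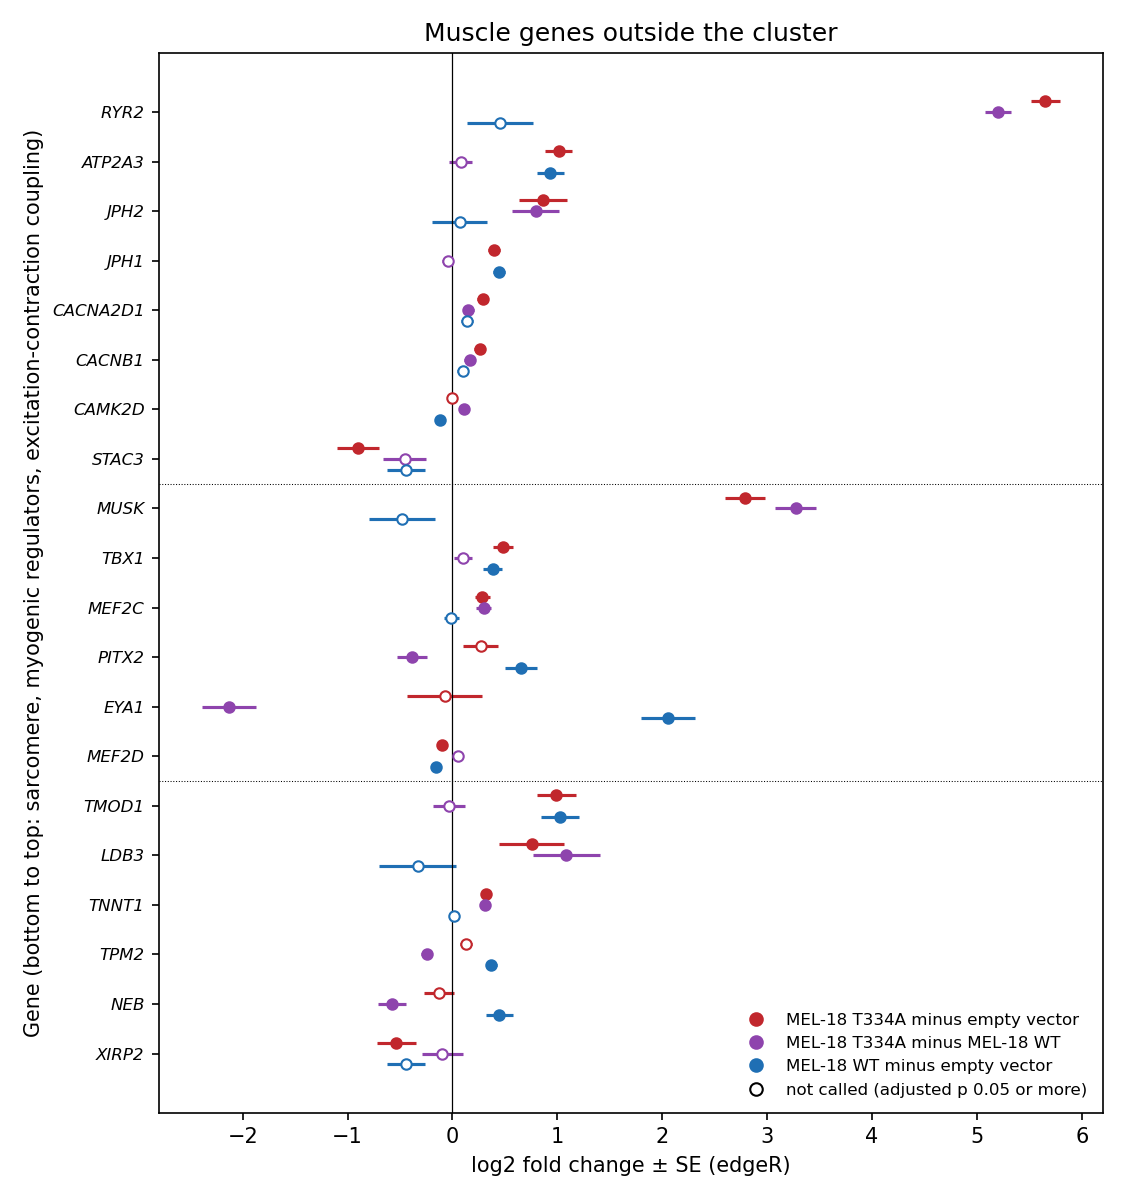
Log2 fold changes with SE (edgeR) of genes taken by the rule from the sarcomere, myogenic and excitation-contraction coupling lists, in MEL-18 T334A minus vector, MEL-18 T334A minus MEL-18 WT and MEL-18 WT minus vector; open points had an adjusted p of 0.05 or more. RYR2, at 5.65 and 5.20, and MUSK, at 2.79 and 3.27, lie on the side of higher values in MEL-18 T334A.

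The tested genes with the pattern most like that of MYH13 were ranked by the Euclidean distance of centred log2 CPM over the 9 libraries, after members and antisense or uncharacterised names were left out. Among the nearest were CPPED1, a phosphatase, at 0.868, ARHGAP28, a GTPase-activating protein, at 1.01, the RNA gene KC6 at 1.28, MDGA2, an adhesion protein of neurons, at 1.47, and ADAMTS12, a secreted protease, at 1.63. CPPED1 averaged 1.11 ± 0.0537 CPM over MEL-18 T334A libraries, 9.64 ± 0.751 over MEL-18 WT libraries and 8.51 ± 0.317 over vector libraries. Each of these 5 genes was lower in all MEL-18 T334A libraries than in all other libraries, which the choice by distance favours. Among all tested genes ranked in this way, the members MYH8, MYHAS, MYH1, MYH2 and MYH4 stood at ranks 5, 7, 18, 19 and 34 from MYH13, and MYH3 stood at rank 753. The members were chosen because of their counts in these same libraries, so nearness to MYH13 was favoured by that choice. MYHAS, MYH8, MYH4, MYH1 and MYH2 also passed the filter through the MEL-18 WT and vector libraries alone.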

How the data were processed

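RNA of 9 MDA-MB-231 cultures was sequenced with a TruSeq stranded mRNA kit (poly(A) selection), per the labels' protocols. The deposited values were raw read counts per gene symbol, which the authors made with CASAVA 1.8, STAR 2.5.3a and featureCounts of Subread 1.5.3 on hg19, per the submitters' processing notes; the sources used here do not name the annotation, the strand setting or the treatment of multiply mapped reads. The members, gene lists and naming rule were chosen with earlier results of these data known.

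Genes passing edgeR's filterByExpr (14738) were tested with edgeR 4.0.16 (R 4.3.3), TMM scaling, 1 mean per group over all 9 libraries, a two-sided quasi-likelihood F test and Benjamini-Hochberg adjustment over all tested genes. Such adjusted p-values are those printed. The rule named all members, PCGF2, MYH9, MYH10, the tested flanking genes, the 6 genes nearest in pattern to MYH13, and up to 4 called genes with the largest change per list and comparison. Only part of the list genes are described, chosen after their values were seen, and 2 genes that the rule took are not reported here. The alternatives for CDH5, PECAM1 and KDR, and GAS7 and CFAP52 without MEL-18 T334A replicate 1, were added after the data were seen. Ratios of summed counts have exact (Clopper-Pearson) 95% intervals, conditional on the total. CPM used TMM-scaled library sizes, with factors from 0.979 to 1.02. WDR16 was read as CFAP52, its symbol in the files. Counts of replicate pairs differed beyond sampling noise (chi-square per degree of freedom from 1.53 to 4.24), so none was counted as a repeat. Transcript lengths, order and identities (mafft 7.526) come from GENCODE 29 on GRCh38, another build than the counts, so no gene coordinates were printed from it. On simulated counts for 14738 genes, genes changed 2-fold were recovered in 90% of cases in MEL-18 T334A against vector libraries, 97% in MEL-18 T334A against MEL-18 WT libraries and 98% in MEL-18 WT against vector libraries. Genes changed 1.5-fold were recovered in 77%, 77% and 91% of cases in that order. The simulation changed 100 genes by each fold, far fewer than the genes called in the data, so these shares may not carry over. Alternatives were DESeq2 1.42.0, RLE factors, library totals, no filter, at least 1 CPM in 3 libraries, a replicate term, the 2 compared groups alone, and each library left out.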

Additional observations from a re-analysis of the deposited data

How the results depend on the processing

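In MEL-18 T334A against vector, MEL-18 T334A against MEL-18 WT and MEL-18 WT against vector libraries, 6765, 6034 and 4242 genes were called, 5734, 4953 and 3355 with DESeq2, and 6496, 5757 and 3963 with the replicate block. Same-numbered libraries of different groups deviated from their group means with correlations of -0.079 to 0.014. For differently numbered libraries the correlations were -0.073 to 0.101. No pairing by number was seen, but 3 libraries a group are too few to exclude it. Library totals alone moved the share of calls that were higher to 64.0%, 58.4% and 60.1%, from 51.1%, 51.2% and 50.1%, in that order of comparisons. Of the 11 tested flanking genes, 2, 3 and 1 were called. Of all tested genes, 23.4%, 21.0% and 14.4% were called higher and 22.5%, 20.0% and 14.4% lower. For the first comparison 1 flanking gene was called with library totals, the filter of 1 CPM, the replicate block, the 2 compared groups alone and DESeq2. DESeq2 called 1 in MEL-18 T334A against MEL-18 WT and 0 in MEL-18 WT against the vector, and leaving out each library in turn gave 1 to 2, 1 to 3 and 0 to 1. The cause was not tested. The filter of 1 CPM kept 3 members, MYH13, MYHAS and MYH3, and the fit of MEL-18 T334A and vector libraries alone kept 6. Of the called values, 0 changed sign under the 16 alternatives. Of 2424 values recomputed for genes outside the cluster, 94 lost and 16 gained a call. Of 323 values of the members, 4 lost a call, all of them MYH3 in MEL-18 WT against vector libraries, and 6 moved by over 1 SD, these all without MEL-18 T334A replicate 1: MYH4, MYH1 and MYH2 went to -2.35, -4.17 and -4.26 on the log2 scale against the vector, and to -2.13, -4.06 and -4.85 against MEL-18 WT. Counts under 10 in most MEL-18 T334A libraries limit what can be said of differences among the adult chains.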
